A study of Rattus norvegicus with 31 samples.

Results

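Ion channel genes of the rat striatum were taken as every gene whose symbol begins with Kcn, Scn, Cacn or Hcn followed by a letter or digit. The array carried 126 probes for 121 such genes. Of these genes, 64 had a probe detected (detection p under 0.01) on 4 or more of 31 arrays and were tested, among 7088 named genes and 9732 probes tested in all. Each gene is described by its probe with the highest mean signal. The striata came from male Sprague-Dawley rats, 1 Illumina RatRef-12 BeadChip array per striatum, collected 2 h after an injection of METH (methamphetamine, 2.5 mg/kg) or saline. ML (6 arrays) and MNL (6) are the lesioned and the non-lesioned side of METH-treated rats that had received 6-OHDA (6-hydroxydopamine, 2 µg/µl in 5 µl) in the left medial forebrain bundle, and SL (6) and SNL (5) are the same sides of saline-treated 6-OHDA rats. MC (4) and SC (4) are striata of METH-treated and saline-treated control rats without 6-OHDA. Titles of the control arrays carry a letter, a or b, that the sources used here do not explain. How many control rats gave these arrays is not stated. All 6-OHDA rats, those of the saline groups included, had earlier been given apomorphine on day 24 and METH on day 31 to measure rotation, so SL and SNL are not METH-naive, and no such schedule is given for the control rats in the sources used here. The toxin was injected on 1 side only, so MNL and SNL are the opposite hemisphere of lesioned brains and not tissue of intact animals. No label pairs the striata of a rat, and p-values therefore measure only the spread between these arrays.

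Between 8042 and 9451 probes per array had a detection p under 0.01. Of 9 listed markers of spiny neurons, 6 had a probe, and all 6 passed the detection filter. The dopamine neuron markers Th, Slc6a3 and Slc18a2 were detected on 0 arrays in every group, so that the loss of dopamine axons cannot be read from these transcripts. In whole tissue, fewer cells of a type and less RNA per cell cannot be told apart. Choroid plexus markers differed widely between arrays: the summed linear intensity of 5 of them ranged between 192 and 9800 in ML, 212 and 1090 in MNL, 222 and 15200 in SL, 213 and 6800 in SNL, 283 and 2680 in MC, and 140 and 746 in SC. The signals of ML replicate 22 and SL replicate 32 stood 4 rows away from their probe names and were moved back before use.

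Voltage-gated sodium channels carry the upstroke of the action potential, voltage-gated potassium (Kv) channels repolarise the membrane and set its firing pattern, and voltage-gated calcium channels couple voltage to transmitter release and to intracellular signalling. In each class a pore-forming alpha subunit is joined by auxiliary subunits that alter gating and carry the channel to the membrane. The spiny projection neurons of the striatum are held at a negative resting potential by inward rectifiers and carry A-type (fast inactivating) Kv4 currents. Dopamine receptors are known to modulate striatal sodium, A-type potassium and L-type calcium currents through kinases acting on the channel proteins.

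The promoters of 3 members described further on are shown, chosen for a similar pattern of their 6 group means. Kcnab1 and Kcnip2 had the highest F statistics over the 6 groups. Scn4b was among the 3 members whose pattern was most like that of each. Each sequence runs from 250 bases before to 50 after the RefSeq transcription start in assembly GRCr8 (Kcnab1 chr2:151614301-151614600, plus strand; Kcnip2 chr1:254613849-254614148, minus strand; Scn4b chr8:54343623-54343922, plus strand), and capitals mark GC boxes, the letters GGGCGG on either strand.
Kcnab1: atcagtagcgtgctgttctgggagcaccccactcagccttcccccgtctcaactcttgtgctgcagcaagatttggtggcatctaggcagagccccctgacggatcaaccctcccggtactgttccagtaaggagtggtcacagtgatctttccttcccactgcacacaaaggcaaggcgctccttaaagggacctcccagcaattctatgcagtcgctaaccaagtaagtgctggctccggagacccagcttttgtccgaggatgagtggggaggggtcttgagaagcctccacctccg
Kcnip2: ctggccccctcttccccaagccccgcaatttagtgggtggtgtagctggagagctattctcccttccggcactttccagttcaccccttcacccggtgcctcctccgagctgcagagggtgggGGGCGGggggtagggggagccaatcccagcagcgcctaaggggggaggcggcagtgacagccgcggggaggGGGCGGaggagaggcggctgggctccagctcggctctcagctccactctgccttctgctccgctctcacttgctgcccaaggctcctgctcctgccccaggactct
Scn4b: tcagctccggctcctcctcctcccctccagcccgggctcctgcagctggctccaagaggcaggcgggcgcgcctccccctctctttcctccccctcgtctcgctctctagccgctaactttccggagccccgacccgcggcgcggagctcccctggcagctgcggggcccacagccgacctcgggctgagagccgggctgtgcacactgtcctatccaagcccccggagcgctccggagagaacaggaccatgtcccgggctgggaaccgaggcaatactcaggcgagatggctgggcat
The Kcnip2 window held 2 GC boxes, and the Kcnab1 and Scn4b windows held 0. Windows were found for 42 of the 64 tested genes (50 windows, counting several starts of a gene). A GC box was present in 26 of these 50 windows (52%), against 33.1% of all 33469 rat windows of the same length. The cyclic AMP response element TGACGTCA was found in 0 of the 50 windows, against 1.83% of all windows, and the AP-1 motif TGANTCA in 1 (2%, Scnn1g), against 7.33%. Both strands were searched, these are matches of letters alone, and the GC boxes marked above do not overlap each other. Windows of 1 gene can overlap, as those of Cacna2d1 do.

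Detection differed between the channel families. All 4 calcium channel beta subunits (Cacnb1 to Cacnb4) were detected on all 31 arrays. Of the Kv alpha subunits, 9 of 14 were tested: the A-type Kv4 subunits Kcnd1, Kcnd2 and Kcnd3 and the fast-spiking Kv3 subunits Kcnc1 and Kcnc2 were detected on all 31 arrays, whereas Kcna1 and Kcna2, the Kv1 subunits of axons, were detected on 0. The auxiliary Kv subunits had 7 of 11 genes tested, the calcium channel alpha1 subunits 5 of 7, the silent Kv subunits 5 of 10, the ether-a-go-go family 5 of 8, the calcium- or sodium-activated potassium channels 5 of 10, and the K2P leak channels 4 of 10. The inward rectifiers had 6 of 14 tested, with Kcnj4 detected on 30 arrays and Kcnj2 and Kcnj10 on 0. The sodium channel alpha subunits had 3 of 8 (Scn1a and Scn2a on 31 arrays, Scn8a on 10), and the sodium channel beta subunits Scn3b and Scn4b were on all 31 arrays. Neither HCN gene with a probe, Hcn3 and Hcn4, was detected on any array.

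**Figure D1:**
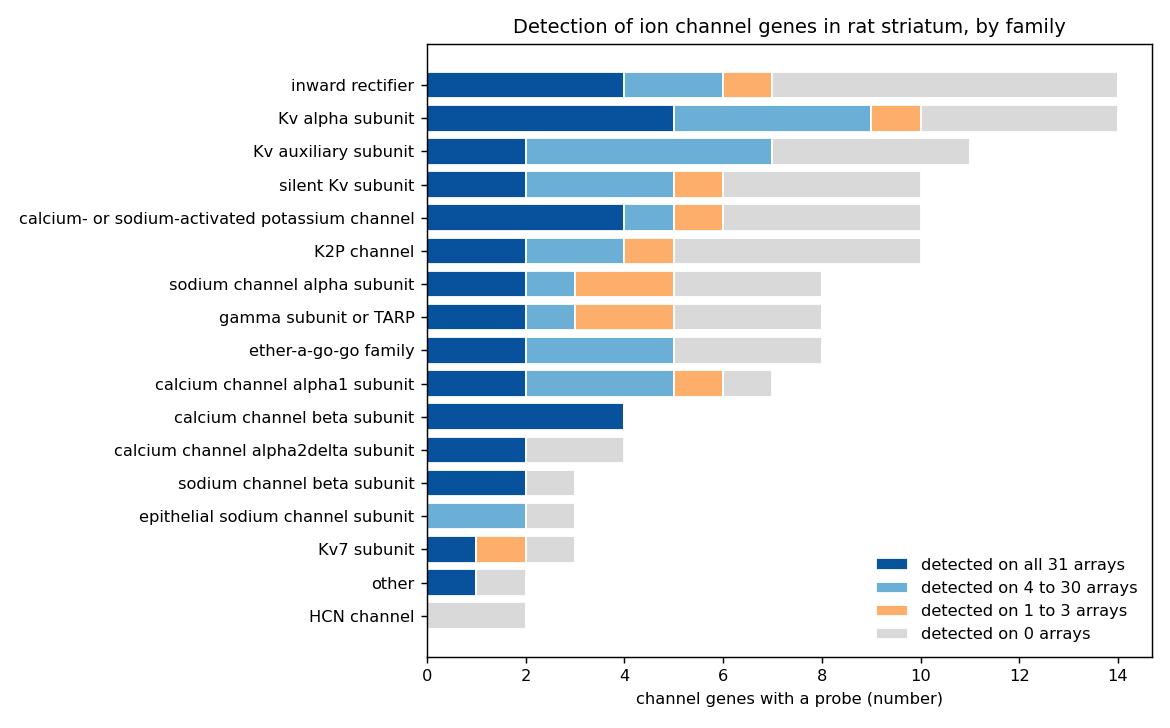
Number of channel genes with a probe in each family (horizontal axis), divided by the number of arrays on which the gene's probe was detected at p under 0.01. All 4 calcium channel beta subunits were on all 31 arrays, and 46 of 121 genes were on 0.

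Over all families 37 genes were detected on all 31 arrays, 27 on 4 to 30, 11 on 1 to 3 and 46 on 0. The last 57 genes had a measured level on 3 arrays at most and were not tested. They include genes with known striatal roles, among them Kcnma1, the pore of the BK calcium-activated potassium channel, Kcnq3, a subunit of the M-current channel, Kcnh4, an ether-a-go-go family pore, and Cacna1a, the pore of P/Q-type calcium channels (0 arrays each), and Cacna1b, the pore of N-type channels (3 arrays). They also include Kcnf1, a silent Kv subunit, and Kcnmb3, a beta subunit of the BK channel, both on 0 of 31 arrays. A probe below background limits what the array could show and does not establish that the transcript is missing. Among the 64 tested genes, 11 were detected on 0 arrays of at least 1 group, and no fold change is given for these genes in a comparison that involves such a group.

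None of the 64 channel genes differed between groups at an adjusted p under 0.05 in any of 14 tests, each fitted over all 9732 probes in limma. The share of all probes that passed was small as well. The lesioned side was compared with the non-lesioned side after saline (SL minus SNL, 0.0822% of all probes called) and after METH (ML minus MNL, 0.123%). METH was compared with saline on the non-lesioned side (MNL minus SNL, 0.113%), on the lesioned side (ML minus SL, 0%) and in control rats (MC minus SC, 0.0103%). The remaining comparisons of groups were ML minus SNL (0.0925%), SNL minus SC (0%) and MNL minus MC (0%). The mean of both lesion comparisons called 0.175% of all probes, the mean of the 3 METH comparisons 0.123%, the mean of both comparisons of the non-lesioned side with controls 0%, and the differences between METH effects, on the lesioned less the non-lesioned side and on the non-lesioned side less controls, 0% each. The F-test over the 6 groups called 36 of 9732 probes (0.37%) and 0 members, the lowest adjusted p of a member being 0.528.

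At an unadjusted p under 0.05 the members numbered 1 of 64 in SL minus SNL, against 4.73% of all probes, 2 in ML minus MNL, against 2.21%, 4 in MNL minus SNL, against 5.21%, and 0 in ML minus SL, against 1.9%. In MC minus SC there was 1, Cacna1e, which was detected on 0 SC arrays, against 6.25% of all probes. In SNL minus SC there were 3, against 4.08%. The F-test gave 6 members (9.38%), against 7.13% of all probes. In ML minus SNL there were 0 members, against 4.52%, and in MNL minus MC 0, against 1.86%. The lesion average gave 4 members, against 3.4% of all probes, and the METH average 0, against 9.62%. The mean of the non-lesioned sides against controls gave 1, against 4.12%, and the differences between METH effects gave 2 on the lesioned less the non-lesioned side, against 2.14%, and 2 on the non-lesioned side less controls, against 1.69%. At the study's rule of 1.7-fold with an unadjusted p under 0.025, 0 members passed in limma in any comparison, and 0 by the methods' t-test in the 8 comparisons of groups. These counts cover the 64 tested genes. The paper, which used a global normalization, lists Kcnf1 and Kcnmb3 under that rule. Neither could pass here, because both were detected on 0 arrays and were not tested. In limma that rule took 0.144% of all probes in SL minus SNL, 0.175% in ML minus MNL, 0.206% in MNL minus SNL, 0.0514% in ML minus SL, 0.216% in ML minus SNL, 0.298% in MC minus SC, 0.113% in SNL minus SC and 0.0411% in MNL minus MC. Groups without any overlap between their arrays were found for 0 members in each of these comparisons except MC minus SC, against 0.36% of all probes in SL minus SNL, 0.206% in ML minus MNL, 0.39% in MNL minus SNL, 0.134% in ML minus SL, 0.421% in ML minus SNL, 0.76% in SNL minus SC and 0.421% in MNL minus MC. Among spiny neuron markers, which are no channel genes, the lesion average called Tac1 and Pdyn of the direct pathway as lower and Penk of the indirect pathway as higher.

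The 95% intervals are given for the 53 members with a measured level in every group. In SL minus SNL the interval of 47 of 53 lay within 1.7-fold in either direction, and in ML minus MNL that of 49, in MNL minus SNL 48 and in ML minus SL 52. Of the 37 members on all 31 arrays the counts were 33, 35, 34 and 36. The exceptions in SL minus SNL were Kcnab1, Kcnip4, Kcna6, Kcnc2, Kcng1 and Scn4b. In ML minus SL the exception was Kcnc2. With 4 arrays per group, MC minus SC left 8 members with an interval that reached 1.7-fold, Kcnab1, Kcnip4, Kcnc2, Kcns3, Kcnv1, Cacnb2, Scn1a and Scn4b. For these genes a change of that size lay inside the interval.

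**Figure D2:**
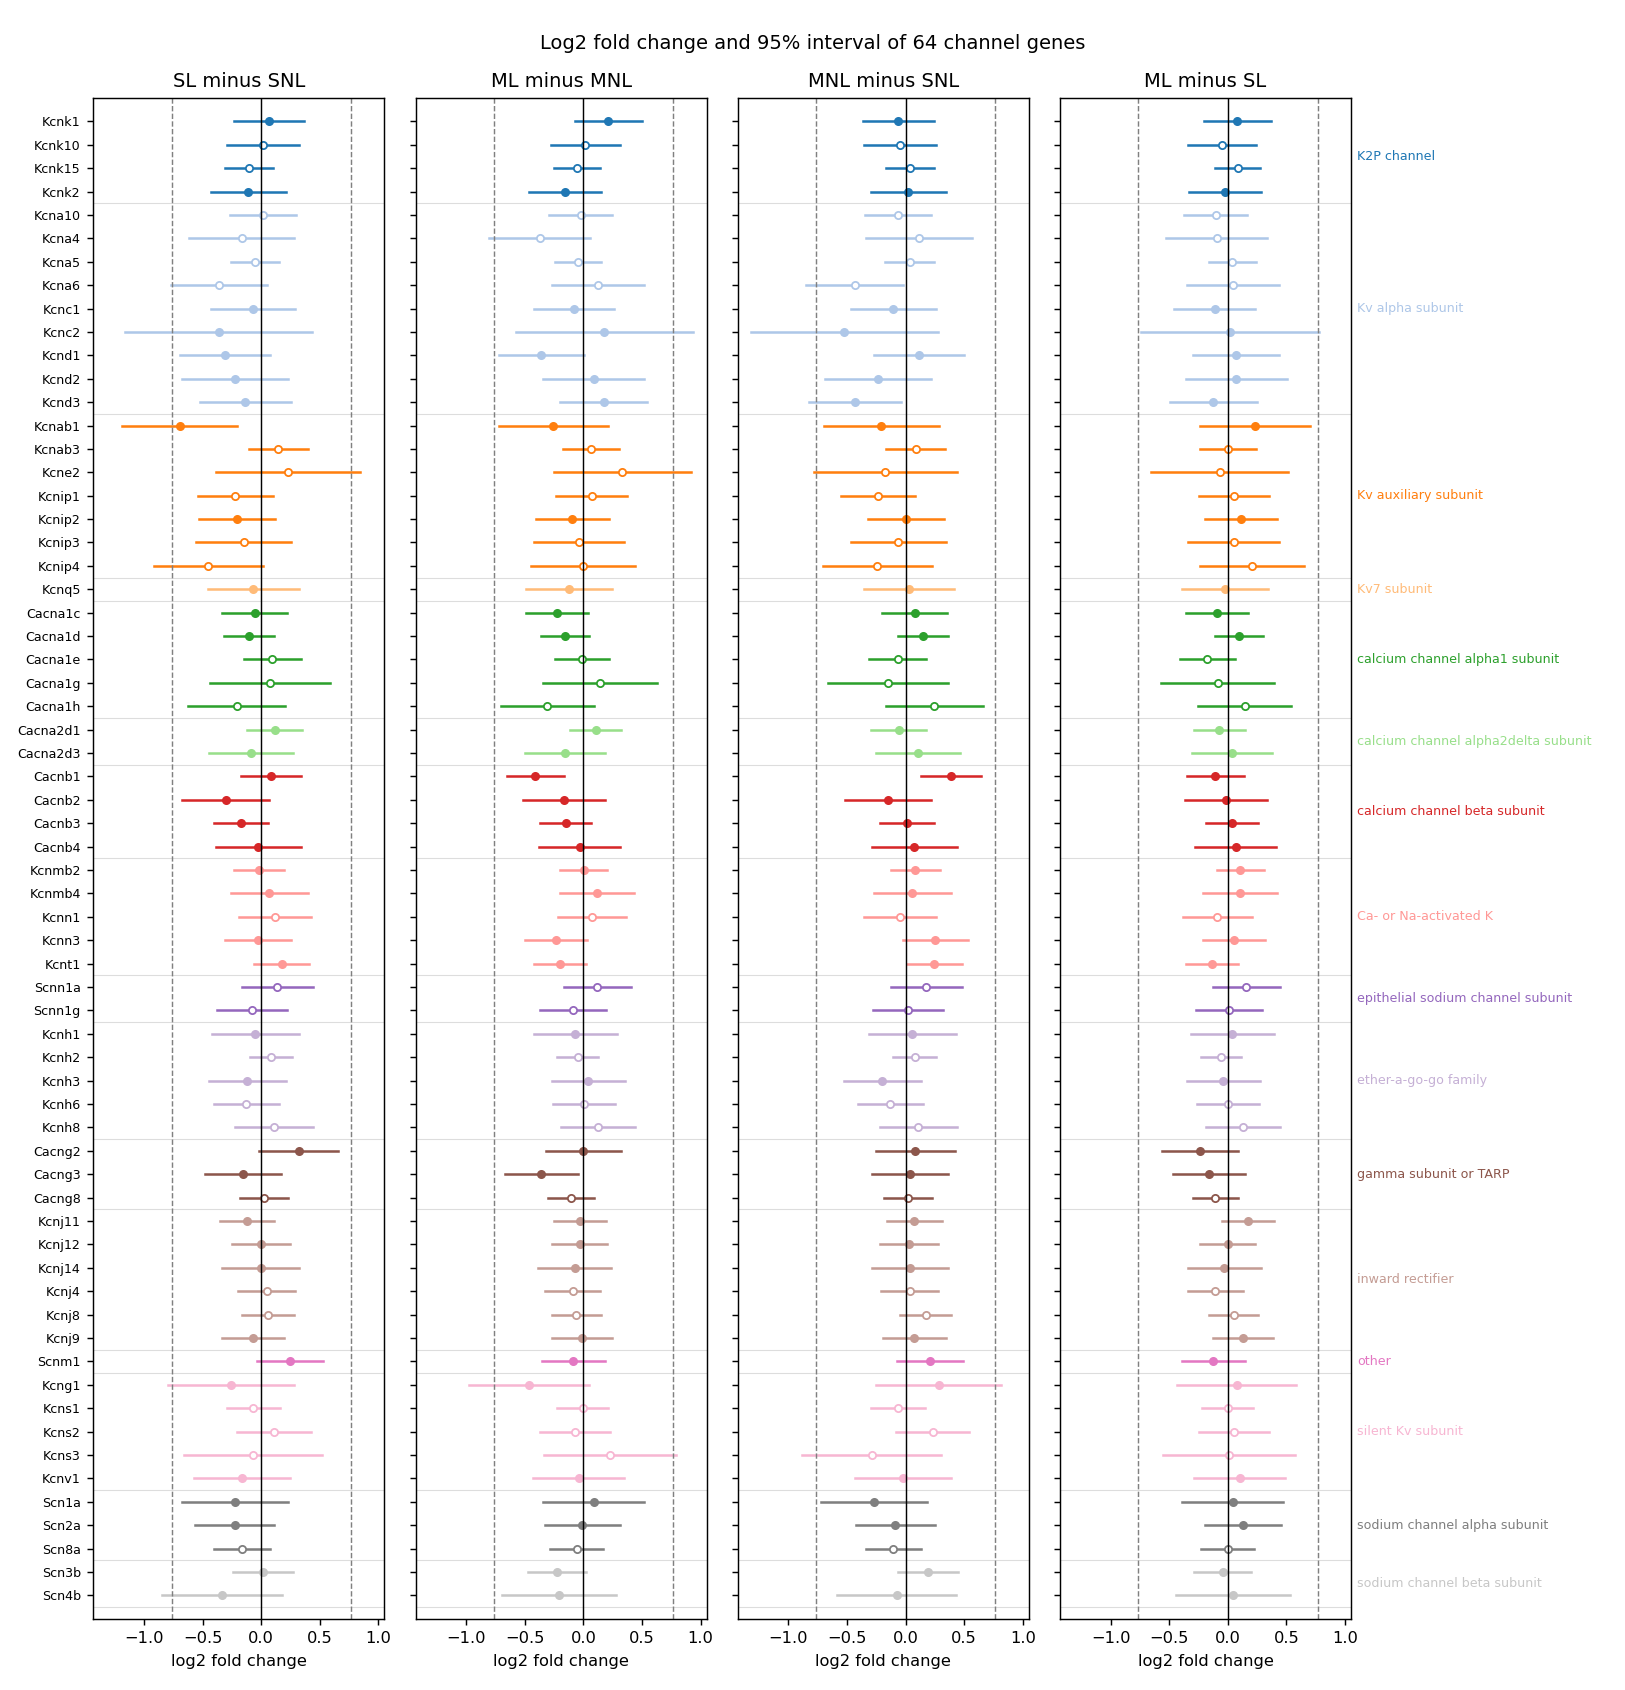
Log2 fold change (points) with its 95% interval (lines) of the 64 tested channel genes in 4 comparisons, grouped by family; filled points were detected on all 31 arrays and dashed lines mark 1.7-fold. Kcnab1 was the member with an interval wholly below 0 in SL minus SNL, and in ML minus SL the interval of Kcnc2 alone reached a dashed line.

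The signs of the differences were not evenly split, counting also the genes at 0 arrays of a group. In SL minus SNL 23 of 64 members had a positive log2 fold change (35.9%), against 45.5% of all probes, with a median of -0.07, against -0.01 over all probes. In the mean of both lesion comparisons 17 of 64 were positive (26.6%), against 45.6%, with a median of -0.06, against -0.01. In the same mean, markers of spiny neurons were negative in 6 of 6 (median -0.15), of the direct pathway in 5 of 5 (-0.38), of astrocytes in 6 of 6 (-0.07) and of oligodendrocytes in 5 of 6 (-0.13), and markers of microglia were positive in 6 of 6 (0.19) and of choroid plexus in 5 of 5 (0.56). Indirect-pathway markers were positive in 2 of 3 (0.07) and cortex neuron markers in 2 of 2 (0.06), and interneuron markers were negative in 4 of 5 (-0.05). The part of these markers in the signs of the channel genes was not tested. In ML minus MNL 20 were positive (31.2%), against 49.5% of all probes, in MNL minus SNL 37 (57.8%), against 46.9%, and in ML minus SL 37 (57.8%), against 49.8%. In ML minus SNL 20 were positive (31.2%), against 46.1%, in MC minus SC 26 (40.6%), against 45.4%, in SNL minus SC 21 (32.8%), against 49.4%, and in MNL minus MC 30 (46.9%), against 50.3%. Of the 37 members detected on all 31 arrays, 9 were positive in SL minus SNL, 9 in ML minus MNL, 24 in MNL minus SNL and 22 in ML minus SL, against 44.3%, 49.7%, 47% and 50.4% of the 7044 probes detected on all 31 arrays. The comparisons that share SNL or MNL are not independent of each other, and members that vary together between arrays, such as Scn4b and Kcnab1, do not count as separate observations. The mean of the 3 METH comparisons had 27 positive members (42.2%), against 45.8% of all probes, with a median of -0.03.

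**Figure D3:**
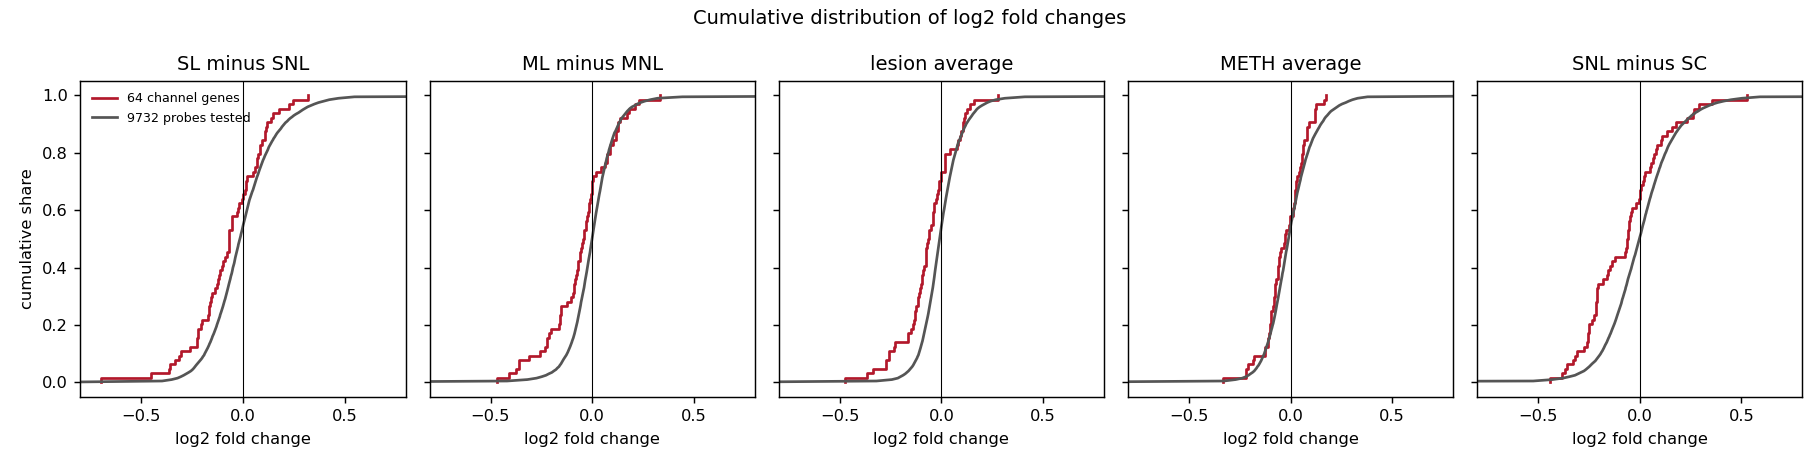
Cumulative share (vertical axis) of log2 fold changes of the 64 channel genes (red) and of all 9732 probes tested (grey) in 5 comparisons. The red step lies left of the grey line over most of its length in SL minus SNL, the lesion average and SNL minus SC, with medians of -0.07, -0.06 and -0.06, against -0.01, -0.01 and 0.00 over all probes.

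Kcnab1 encodes Kvbeta1, a cytoplasmic subunit that confers fast inactivation on Kv1 channels. Its log2 intensity in SL striata had a lowest value of 7.31, a median of 8.18 and a highest of 8.45, against 8.16, 8.51, 8.84, 8.84 and 9.49 in the 5 SNL striata. The ranges overlapped, with 3 of 6 SL arrays above the lowest SNL array. The log2 difference of SL minus SNL was -0.70 ± 0.24 (SE; 95% interval -1.19 to -0.21), a level 1.62-fold lower in SL, and it did not pass the test (unadjusted p = 0.00693, adjusted p = 0.908, limma). After METH the values were 7.58, 8.34 and 8.89 in ML (lowest, median, highest) and 7.75, 8.57 and 9.09 in MNL, and the difference was -0.26 with an interval that includes 0. Averaged over both lesion comparisons it was -0.48 ± 0.17 (SE, adjusted p = 0.886). The 4 MC striata had 8.54, 8.60, 8.73 and 8.74, and the 4 SC striata 8.72, 8.73, 9.04 and 9.43. SL had the lowest and SC the highest of the 6 group means, which spanned 0.909 on the log2 scale, the widest span among the members, beside a within-group SD of 0.423.

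The Kcnab1 value did not pass the threshold under any alternative, and came nearest to it with striata grouped in pairs. When neighbouring striatum numbers of 6-OHDA rats were treated as a random block, although no label pairs them, the average lesion difference was -0.49 with an adjusted p of 0.0673, and the SL minus SNL difference had an adjusted p of 0.114. In all 11 such pairs Kcnab1 was lower on the lesioned side, with log2 differences between -1.28 and -0.03. It was the 1 member of 64 with the same sign in all 11 pairs, against 0.401% of all probes, a count chosen after seeing the data. Of the spiny neuron markers, 5 of 6 were negative in SL minus SNL, with a median of -0.22 and 0 called, and their summed linear intensity ranged between 11200 and 25100 in SL and between 17400 and 29300 in SNL. Direct-pathway markers were negative in 5 of 5 (median -0.35), astrocyte markers in 6 of 6 (-0.14) and oligodendrocyte markers in 5 of 6 (-0.29). Indirect-pathway markers were positive in 2 of 3 (median 0.09), interneuron markers in 3 of 5 (0.04) and cortex neuron markers in 2 of 2 (0.01). Microglial markers were positive in 6 of 6 (median 0.30) and choroid plexus markers in 5 of 5 (0.45), and 0 genes of these lists were called in SL minus SNL. The part of these markers in the Kcnab1 difference was not tested. The members whose 6 group means were most like those of Kcnab1 were Scn4b (Pearson r = 0.947 over 6 group means), Cacnb3 (0.929) and Kcnip4 (0.924), given as a description.

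Kcnip2 encodes KChIP2, a calcium-binding subunit of A-type Kv4 channels. Its values in the 5 SNL striata were 9.21, 9.53, 9.67, 9.93 and 10.25, against 9.82, 10.07, 10.21 and 10.55 in the 4 SC striata. The lowest 3 SNL arrays lay below every SC array. SNL minus SC was -0.44 ± 0.18 (SE; interval -0.80 to -0.08), 1.36-fold lower in SNL, with an unadjusted p of 0.0171 and an adjusted p of 0.986. The lowest, median and highest values were 9.25, 9.63 and 10.05 in ML, 9.29, 9.74 and 10.04 in MNL, and 9.22, 9.54 and 9.75 in SL, and MC striata had 9.69, 9.73, 9.98 and 10.05. All 6 SL arrays lay below the lowest SC array, a pair of groups for which no test was run and no share of all probes was taken. Kcnq5 (r = 0.976 over the 6 group means), Cacnb3 (0.975) and Scn4b (0.971) had the group means most like those of Kcnip2. Of the other KChIPs, Kcnip4 was -0.45 ± 0.23 (SE) in SL minus SNL (adjusted p = 0.908), and Kcnip1, detected on 9 arrays, and Kcnip3 passed no test.

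None of the 3 Kv4 pore subunits passed the test. Kcnd1 (Kv4.1) had lowest, median and highest values of 7.46, 7.77 and 8.30 in ML, 7.50, 8.30 and 8.42 in MNL and 7.32, 7.82 and 8.20 in SL, and 7.64, 7.90, 7.97, 8.05 and 8.69 in the SNL striata. Its average lesion difference was -0.34 ± 0.13 (SE, unadjusted p = 0.0151, adjusted p = 0.999), and the ranges of the lesioned and non-lesioned sides overlapped. In control rats Kcnd1 measured 7.87, 7.92, 8.24 and 8.43 in MC and 7.99, 8.30, 8.36 and 8.57 in SC. Kcnd3 (Kv4.3) averaged 7.35 ± 0.37 in MNL and 7.78 ± 0.38 in SNL (SD, n = 6 and 5), a difference of -0.43 ± 0.19 (SE, adjusted p = 0.839). Kcnd2 (Kv4.2) averaged 10.16 ± 0.36 in MNL and 10.60 ± 0.40 in MC (SD, n = 6 and 4), with a difference of -0.43 whose interval included 0.

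Among the Kv1 subunits, Kcna6 was detected on 18 arrays and Kcna4 on 22. Kcna6 averaged 5.22 ± 0.34 in MNL and 5.66 ± 0.35 in SNL (SD, n = 6 and 5), a difference of -0.44 ± 0.20 (SE, adjusted p = 0.839). Against SC, at 5.13 ± 0.36 (SD, n = 4), SNL was 0.53 ± 0.22 (SE) higher in log2 intensity, which was the largest positive difference of a member in SNL minus SC and had an adjusted p of 0.986. Kcna6 was detected on all 5 SNL arrays and on 2 of 4 SC arrays. In the deposited log2 table, SNL minus SC was 1.11 and MNL minus SNL was -0.90. Kcna4 (Kv1.4, an A-type subunit) was detected on 2 of 6 ML and 5 of 6 MNL arrays, with a difference of -0.37 ± 0.21 (SE, adjusted p = 1), which was -0.18 without MNL replicate 1 and -0.55 without ML replicate 2. Kcna5 and Kcna10, the other Kv1 genes tested, were detected on 13 and 6 arrays.

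Silent Kv subunits form channels only together with other Kv subunits. Kcng1 (Kv6.1) averaged 8.15 ± 0.38 in ML and 8.61 ± 0.29 in MNL (SD, n = 6 each), a difference of -0.47 ± 0.25 (SE, adjusted p = 1), the most negative of the members in that comparison. Its average lesion difference was -0.36 ± 0.18 (SE, unadjusted p = 0.0539). Kcns2, Kcns3, Kcns1 and Kcnv1 passed no test.

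The calcium channel beta subunits, which bind the alpha1 pore on its cytoplasmic side, made up 3 of the 5 members with the highest F. Cacnb1 had lowest, median and highest values of 7.26, 7.39 and 7.55 in ML, against 7.52, 7.79 and 8.12 in MNL, so that 1 ML array lay above the lowest MNL array. The difference of ML minus MNL was -0.41 ± 0.12 (SE; interval -0.65 to -0.17), 1.33-fold lower in ML, with an unadjusted p of 0.00177, the lowest of any member in any comparison, and an adjusted p of 0.594. In SL the values were 7.10, 7.60 and 7.81, and the 5 SNL striata had 7.28, 7.30, 7.37, 7.40 and 7.73. MNL minus SNL was 0.39 ± 0.13 (SE, unadjusted p = 0.00423, adjusted p = 0.772), and the METH difference on the lesioned side less that on the non-lesioned side was -0.50 ± 0.17 (SE, adjusted p = 1). Control striata had 7.30, 7.49, 7.67 and 7.73 in MC and 7.36, 7.42, 7.50 and 7.58 in SC, and overlapped each other. The 2 lowest SL arrays, 7.10 and 7.22, lay below all other 29 arrays.

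Cacnb3 had lowest, median and highest values of 9.98, 10.21 and 10.35 in ML, 10.09, 10.35 and 10.61 in MNL, and 9.94, 10.18 and 10.28 in SL. The SNL striata had 10.00, 10.13, 10.26, 10.51 and 10.73, the MC striata 10.20, 10.38, 10.43 and 10.47, and the SC striata 10.40, 10.51, 10.72 and 10.72. Every ML and SL array lay below the lowest SC array, pairs of groups for which no test was run and no share of all probes was taken. The average lesion difference of Cacnb3 was -0.16 ± 0.08 (SE, adjusted p = 0.999). Cacnb2 measured 6.66, 6.79, 6.89 and 6.91 in MC, against 6.99, 7.08, 7.26 and 7.49 in SC, without overlap. Of all probes, 2.41% did not overlap in MC minus SC, and of the members 2 did not, Cacnb2 and Cacna1d. The Cacnb2 difference of -0.39 ± 0.21 (SE) had an adjusted p of 0.772. Its lowest, median and highest values were 6.00, 6.65 and 6.90 in ML, 6.36, 6.78 and 7.08 in MNL and 6.20, 6.59 and 6.88 in SL, and the SNL striata, at 6.20, 6.51, 6.97, 7.35 and 7.45, had 3 arrays below every SC array. Cacnb4 passed no test.

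Cacna1d encodes the pore of Cav1.3 L-type channels, which open at fairly negative voltages. It measured 5.78, 5.79, 5.87 and 5.87 in MC, against 5.88, 5.96, 6.08 and 6.09 in SC, and the groups did not overlap. Lowest, median and highest values were 5.54, 5.79 and 6.02 in ML, 5.74, 5.93 and 6.08 in MNL and 5.46, 5.68 and 5.84 in SL, and the SNL striata had 5.41, 5.58, 5.87, 5.88 and 6.15. Cacna1c, the pore of Cav1.2, averaged 6.51 ± 0.21 in ML, 6.73 ± 0.28 in MNL, 6.60 ± 0.24 in SL and 6.66 ± 0.19 in SNL (SD, n = 6, 6, 6 and 5). The low-threshold T-type pores Cacna1g and Cacna1h were detected on 30 and 27 arrays. Cacna1g had an average difference of the non-lesioned sides from controls of 0.35 ± 0.19 (SE, adjusted p = 0.943). Cacna1e, the R-type pore, was on 0 of 4 SC arrays and 0 of 6 MNL arrays, and no fold is given. Cacna2d1, a membrane-anchored subunit and the target of gabapentin, and Cacna2d3 passed no test.

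The TARPs (transmembrane AMPA receptor regulatory proteins) carry channel symbols but mainly traffic glutamate receptors. Cacng2, or stargazin, averaged 8.84 ± 0.11 in SL and 8.52 ± 0.36 in SNL (SD, n = 6 and 5), and its difference of 0.32 ± 0.17 (SE, adjusted p = 0.908) was the largest positive one in SL minus SNL. Cacng3 averaged 8.13 ± 0.27 in ML and 8.48 ± 0.25 in MNL (SD, n = 6 each), a difference of -0.36 ± 0.15 (SE, unadjusted p = 0.0249, adjusted p = 1). Averaged over both lesion comparisons, the differences were 0.16 ± 0.11 for Cacng2 and -0.26 ± 0.11 for Cacng3 (SE), neither past the threshold. Cacng8, the third TARP tested, was on 0 ML and 0 SC arrays.

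Scn3b and Scn4b encode sodium channel beta subunits, and Scn4b is known for the resurgent sodium current and for its strong expression in the striatum. Scn3b had lowest, median and highest values of 11.67, 12.18 and 12.42 in ML, 12.11, 12.35 and 12.60 in MNL, and 12.00, 12.20 and 12.27 in SL. The SNL striata had 11.93, 11.99, 12.07, 12.13 and 12.68, the MC striata 12.37, 12.42, 12.49 and 12.57, and the SC striata 12.28, 12.36, 12.40 and 12.60. The highest SNL array stood apart from the other 4, which all lay below every control array. No test was run and no share of all probes was taken for this split. With all 5 SNL arrays, SNL and SC overlapped. Scn4b averaged 11.50 ± 0.49 in SL and 11.83 ± 0.62 in SNL (SD, n = 6 and 5), and 11.91 ± 0.03 in MC and 12.20 ± 0.33 in SC (SD, n = 4 each). Its average lesion difference of -0.27 ± 0.17 (SE) had an adjusted p of 0.999. The sodium pores Scn1a and Scn2a had negative values in SL minus SNL, -0.22 to -0.23, with intervals that included 0.

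**Figure D4:**
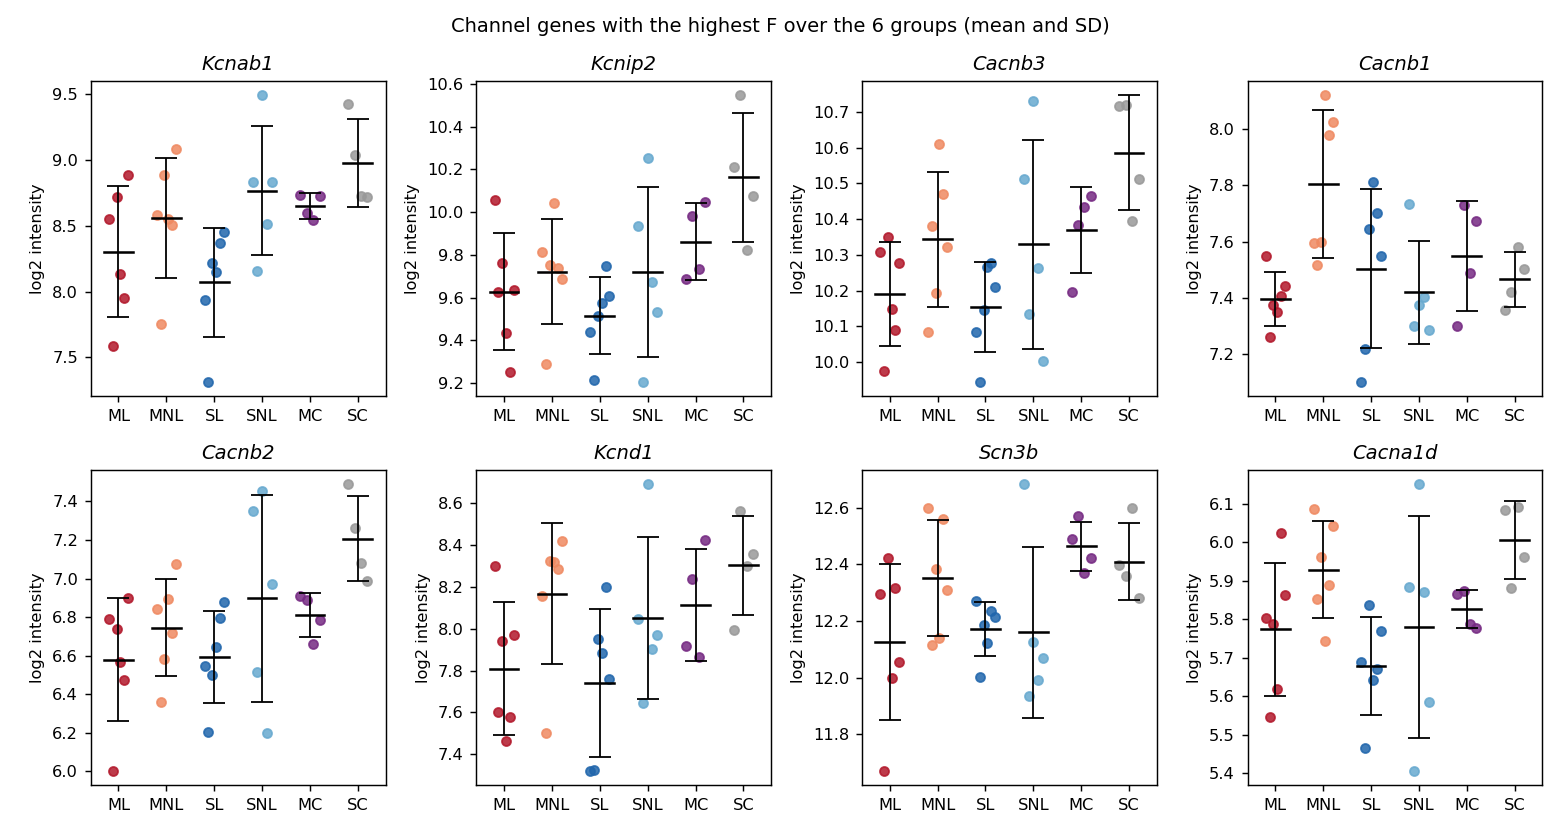
Log2 intensity (vertical axes, each with its own range) on every array of the 8 channel genes with the highest F, by group; bars give the mean and SD. In the 8 comparisons of groups that were tested, arrays of the 2 groups overlap in every panel except Cacnb2 and Cacna1d in MC against SC. Pairs that were not tested, such as SL against SC, are not counted. SC has the highest mean in 6 of the 8 genes.

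In the remaining families no member passed the test. The 6 inward rectifiers, which include Kcnj4 (Kir2.3) and the ATP-sensitive pore Kcnj11, had 0 members with an unadjusted p under 0.05 in the lesion average. The 5 with a measured level in every group, Kcnj4, Kcnj9, Kcnj11, Kcnj12 and Kcnj14, lay between -0.07 and -0.02 there. Kcnj8, the pore of vascular ATP-sensitive channels, was detected on 0 SNL, MC and SC arrays, and no fold is given. Of the calcium- or sodium-activated potassium channels, Kcnt1 (Slack, a sodium-activated channel) had a difference of 0.24 ± 0.11 (SE, adjusted p = 0.839) in MNL minus SNL and Kcnn3 (SK3) one of 0.25 ± 0.14 (SE, adjusted p = 0.839). The leak channels Kcnk1 and Kcnk2 (TREK-1) were on all 31 arrays, and Kcnk1 had a difference of 0.21 ± 0.14 (SE, adjusted p = 1) in ML minus MNL. Kcnq5, the M-current subunit that was tested, had one of -0.36 ± 0.21 (SE, adjusted p = 0.986) in SNL minus SC. The epithelial sodium channel subunits Scnn1a and Scnn1g were on 4 and 13 arrays, and Scnn1a was on 0 SL, SNL, MC and SC arrays. Scnm1, which follows the symbol rule but is a splicing factor and not a channel, had a difference of 0.24 ± 0.14 (SE, adjusted p = 0.908) in SL minus SNL, and of 0.08 without SNL replicate 19.

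The remaining extremes of each comparison were all short of the threshold. In ML minus SL the highest member was Kcnab1, at 0.23, and the lowest Cacng2, at -0.24, with an adjusted p of 1 for both. In MC minus SC the lowest members were Kcnc2 (-0.50), Scn1a (-0.43) and Cacnb2. Kcnc2 was -0.14 there without SC replicate 6, -0.85 without MC replicate 5 and -0.05 with array weights, and Scn1a was -0.25 without SC replicate 6, -0.65 without SC replicate 15 and -0.04 with array weights. In the same comparison the highest members with a measured level in both groups were Kcnj12 (0.23), a Kir2 pore, and Kcnmb2 (0.19), a BK channel beta subunit. In the METH average Kcnc2 was lowest, at -0.33, and the T-type pore Cacna1h highest, at 0.17. In ML minus SNL Kcnab1 was lowest, at -0.46, and Kcnh8, an ether-a-go-go family pore detected on 7 arrays, highest among the members with a measured level in both groups, at 0.24. In the METH difference on the lesioned less the non-lesioned side, Kcnc2 (0.54), Kcna6 (0.48) and Kcnip4 (0.45) were highest, and Kcnt1 (-0.38) followed Cacnb1 at the low end. In the METH difference on the non-lesioned side less controls, Kcns2 (0.46) was highest and Kcna6 (-0.60) lowest, and 23 of 64 intervals reached 1.7-fold.

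Arrays of the same group varied by amounts close to the span of the group means. The median within-group SD was 0.266 over the members and 0.217 over all probes tested, and the median span of the 6 group means was 0.319 and 0.254. Kcnc2 (Kv3.2, a delayed rectifier of fast-spiking interneurons) had the widest within-group SD of the members, 0.698. Its lowest, median and highest values were 8.95, 9.69 and 10.44 in ML, 8.53, 9.51 and 10.38 in MNL, and 8.20, 9.91 and 10.30 in SL. The SNL striata had 9.61, 9.86, 10.08, 10.26 and 10.28, the MC striata 8.36, 8.51, 9.75 and 10.29, and the SC striata 8.90, 9.20, 9.99 and 10.81. The MC values 8.36 and 8.51 and the SC value 8.90 came from the control arrays titled b. MNL minus SNL was -0.52 ± 0.39 (SE, adjusted p = 0.84), the most negative of the members in that comparison. Kcnc2 had 2 further probes past the filter, which followed the one used with r = 0.818 and 0.849 over 31 arrays and gave -0.38 and -0.43 in MNL minus SNL. In other comparisons they differed more from the probe used: SL minus SNL was -0.09 and -0.18 by these probes and -0.36 by the probe used, and MC minus SC was -0.13 and -0.24 by these probes and -0.50 by the probe used. Kcna10, Kcnh8 and Kcnk5 were the other members with several probes.

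Some members varied together across arrays, described here as pairs with Kcnc2 or Scn4b after subtraction of each group's mean. These pairs were chosen after their values were seen, so r is given as a description over 31 arrays that share normalization, and no p is given. Kcnc2 followed Kcns3, a silent partner subunit (Pearson r = 0.828, Spearman rho = 0.814), the T-type pore Cacna1g (0.74 and 0.704), the Kv3.1 gene Kcnc1 (0.734 and 0.757) and the interneuron marker Pvalb (0.613 and 0.574). Scn4b followed Kcnab1 (0.87 and 0.824), Cacna2d3 (0.784 and 0.708) and the spiny neuron markers Rgs9 (0.88 and 0.836) and Ppp1r1b (0.719 and 0.733). Its Pearson r was also high with Cacnb2 (0.833) and Kcnk2 (0.82), above that with Cacna2d3. Rgs9 and Ppp1r1b are 2 of 6 tested spiny neuron markers and Pvalb is 1 of 5 tested interneuron markers, and r is not given for the others. Kcnc2 and Scn4b had r = -0.258 and rho = -0.215 with each other. Cacna2d3, which followed Scn4b, had r = -0.588 with Kcnc2. Kcnd1 had r = -0.555 with Kcnc2 and 0.711 with Scn4b, whereas Kcnh3 was positive with both (0.505 and 0.25). Without the 2 arrays farthest from the median of the first gene, r was 0.78 for Kcnc2 with Kcns3, 0.543 for Kcnc2 with Pvalb, 0.825 for Scn4b with Kcnab1, 0.847 for Scn4b with Rgs9 and -0.168 for Kcnc2 with Scn4b.

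Kcne2 encodes a beta subunit of Kv channels that is known from the choroid plexus. It was detected on 4 of 31 arrays, at 5.57 and 5.86 in ML replicates 30 and 10, 6.88 in SL replicate 4 and 5.32 in SNL replicate 11. On the other 27 arrays it was below background, at or under 4.87. The choroid plexus marker Clic6 was detected on the same 4 arrays, and over 31 arrays Kcne2 followed Clic6 (r = 0.975, rho = 0.9), Sostdc1 (0.907 and 0.843) and Ttr (0.811 and 0.744) after subtraction of group means. Without SL replicate 4 and ML replicate 10 these r values were 0.949, 0.885 and 0.793. SL minus SNL for Kcne2 was 0.23 ± 0.30 (SE, adjusted p = 0.929), and -0.16 without SL replicate 4. Without the 4 arrays with Clic6, a comparison chosen after seeing the data, 0 of the 64 members were called in any of the 14 tests.

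**Figure D5:**
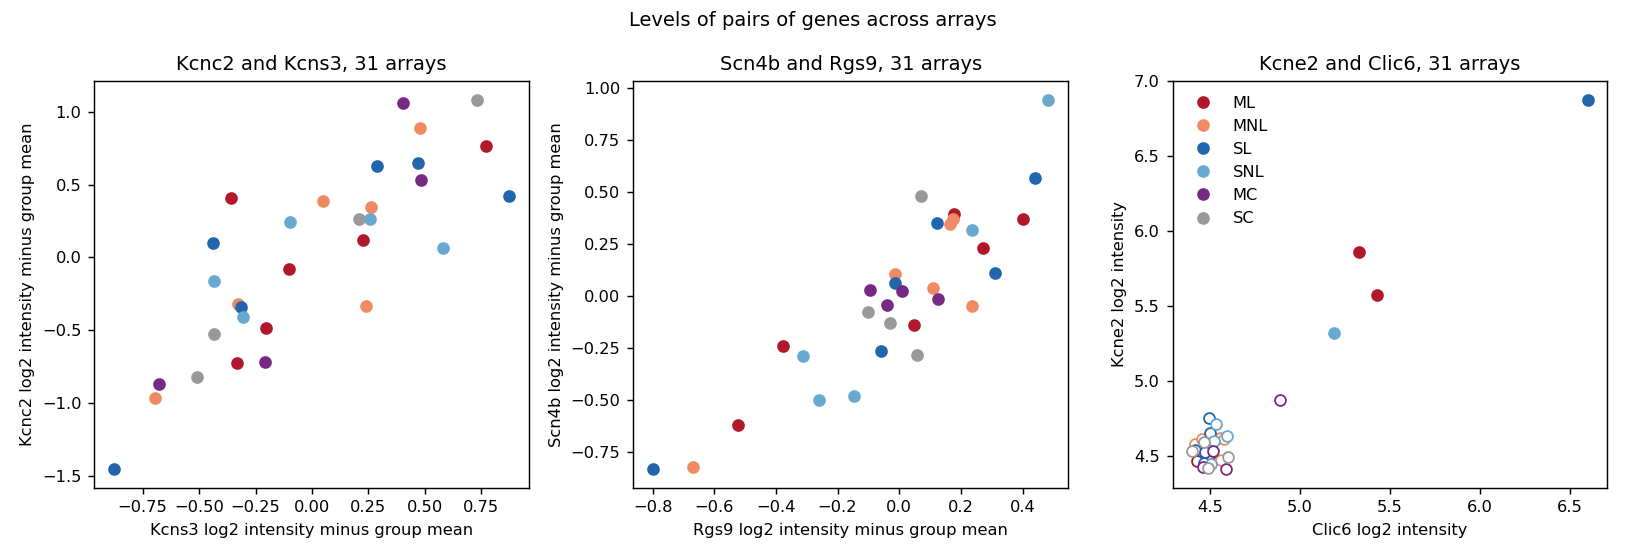
Left and middle: log2 intensity less the group mean of Kcnc2 against Kcns3 and of Scn4b against Rgs9 on 31 arrays, coloured by group. Right: log2 intensity of Kcne2 against Clic6, filled where Kcne2 was detected; the 4 filled points lie between 5.32 and 6.88 on the Kcne2 axis and all other arrays at or under 4.87.

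Genes that act with these channels were described from a list of 50 partners and other channels, including dipeptidyl-peptidase subunits of Kv4 channels, fibroblast growth factor homologous factors of sodium channels, and chloride, Trp and intracellular calcium release channels. Of these, 28 had a probe and 19 were tested. In SL minus SNL 6 of the 19 were positive, with a median of -0.03, and 0 were called; in ML minus MNL 11 were positive, with a median of 0.02, and 0 were called. In MNL minus SNL and in ML minus SL 8 and 9 were positive, with medians of -0.04 and -0.01, and 0 were called in either.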

How the data were processed

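Striatal RNA of 31 samples was hybridised to 1-colour Illumina arrays. The authors deposited BeadStudio signal intensities, background-subtracted and not normalized between arrays, with detection p-values, and a table of log2 values that was used as an alternative, with 1 column left out because it holds 1 minus the detection p-value. Of 22523 probes, the first 4 were left out because 2 columns hold the same signals there. ML replicate 22 and SL replicate 32 were moved by 4 rows, at the shift with the best correlation to the other arrays (shifts of up to 10 rows tried). Signals were corrected with neqc (normexp on detection p-values, offset 16), quantile normalized and log2 transformed. A fit of 6 group means (lmFit and eBayes in limma 3.58.1, R 4.3.3; 25 residual and 4.85 prior degrees of freedom) gave 13 contrasts and an F-test, and Benjamini-Hochberg adjustment ran over 9732 probes at a threshold of 0.05. Intensities of different probes were not compared. The lowest detected level lay between 5.04 and 5.43 (log2), and the number of arrays sets the precision. Symbols came from the platform annotation, updated to GRCr8; 13790 probes had 1 and 8729 had none. Figures were drawn with matplotlib 3.10.9 (Python 3.11.15).

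Named are members past the threshold, those with the 3 largest differences per direction and comparison, the 8 members of highest F with their array values, and genes with textbook roles. The members, gene lists and comparisons were chosen with earlier results of these data known. The fit was tested on simulated data. Alternatives were another scaling, the deposited log2 table, other probe filters and sample sets, array weights, blocks, the methods' thresholds and leaving out arrays.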

Additional observations from a re-analysis of the deposited data

Results flagged for a closer look

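In 66 groups of arrays checked, over 11 genes, 5 held an array whose gap to the nearest other array was past Dixon's 95% critical value, against about 1 in 20 that chance gives. SNL replicate 3 was the highest of its group for Cacnb1, at 7.73 with the next array at 7.40, and for Scn3b, at 12.68 with the next at 12.13. MNL replicate 9 was the lowest of its group for Kcnd1, at 7.50 with the next at 8.16, and for Scn4b, at 10.94 with the next at 11.71. SL replicate 4 was the highest of its group for Kcne2, at 6.88 with the next at 4.75, and was also the SL array on which Clic6 was detected. No member's METH difference passed the test of the difference between sides or between the non-lesioned side and controls.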

How the results depend on the processing

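All 384 counts of called members under an alternative were 0, as reported, 230 of them with 1 array left out and 154 under other alternatives. The lowest and highest counts without 1 array were 0 and 0 for each comparison. Of the named log2 fold changes, 1732 kept their sign and their side of the threshold, yet 50 of the 71 named fold changes moved by over 1.5 times under at least 1 alternative, among them Kcna6 in the METH difference on the non-lesioned side less controls (-0.60, and -1.31 in the deposited log2 table) and Kcnc2 in the METH difference between sides (0.54, and 0.18 by another probe). For Kcne2 in SL minus SNL, reported as 0.23, the sign was opposite in the deposited log2 table (-0.12), with array weights (-0.0055), without SL replicate 4 (-0.16) and without the 4 arrays with Clic6 (-0.0102), and leaving out 1 array at a time gave -0.16 to 0.37, the highest without SNL replicate 11. For Kcnv1, in the METH difference on the non-lesioned side less controls (0.34), it was opposite with array weights (-0.038). The cause was not tested. Kcnab1 in SL minus SNL ranged between -0.85 and -0.52 when 1 array was left out. The lowest adjusted p of a named member under any alternative was 0.0673, for Kcnab1 in the lesion average with neighbouring striatum numbers as a random block (11 blocks of 2, consensus correlation 0.348). That block called 51 of all probes in the lesion average, against 17, 29 in ML minus MNL, against 12, 17 in SL minus SNL, against 8, and 8 in the METH difference between sides, against 0. The block rests on neighbouring numbers alone: the groups share no replicate numbers, and no label pairs the striata of a rat. The 57 genes detected on fewer than 4 arrays limit the comparison to the brighter probes.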
